A study of Homo sapiens with 6 samples.

Results

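The GIMAP genes (GTPases of the immunity-associated proteins) were measured in NCI-H929, by its label a line from human multiple myeloma, on 6 Affymetrix arrays. The members were GIMAP1, GIMAP2, GIMAP4, GIMAP5, GIMAP6, GIMAP7 and GIMAP8, taken by symbol from the table that pairs probe sets with genes. These were 7 of 18132 genes, measured by 13 probe sets of their own and by 1 that GIMAP5 shares with the readthrough transcript GIMAP1-GIMAP5. The PRMT5_down group (3 arrays) carried a lentivirus directed against PRMT5, an arginine methyltransferase that places symmetric dimethyl marks, and the control group (3 arrays) a control lentivirus. The titles call both vectors sponges, while the treatment protocol speaks of a PRMT5 hairpin in a pLKO vector, puromycin selection and harvest at one timepoint. What the control virus carried, and whether the replicates were separate cultures, is not given in the labels, so spreads between arrays may be technical. The family was chosen by a measured value, the large mean difference of GIMAP2 between PRMT5_down and control on these same arrays. All differences between the groups are therefore given as descriptions, with no test.

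GIMAP proteins are GTPases of the AIG1 type that sit in a cluster of neighbouring genes and are best known from lymphocytes, where they bear on cell survival and membrane traffic. GIMAP2 has been found on lipid droplets, where it assembles into scaffolds when bound to GTP, and GIMAP7 can speed up its GTP hydrolysis. In rodents, loss of Gimap5, a protein of lysosomal membranes, leaves too few T cells.

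GIMAP2 was the only member with a signal above background on any array. Values are log2 signals, and a probe set counted as above background on an array where it exceeded the 95th percentile of 341 olfactory receptor genes, which lay between 4.88 and 4.98. GIMAP2 read 5.21, 6.69 and 6.46 in PRMT5_down replicates 1, 2 and 3, against 4.78, 5.81 and 4.46 in control replicates 1, 2 and 3. All 3 PRMT5_down arrays and control replicate 2 were above background, while control replicates 1 and 3 were under it by 0.18 and 0.52. The groups overlapped, since control replicate 2 was higher than PRMT5_down replicate 1. As bulk RNA was measured, more cells with the transcript and more transcript per cell cannot be told apart.

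**Figure D1:**
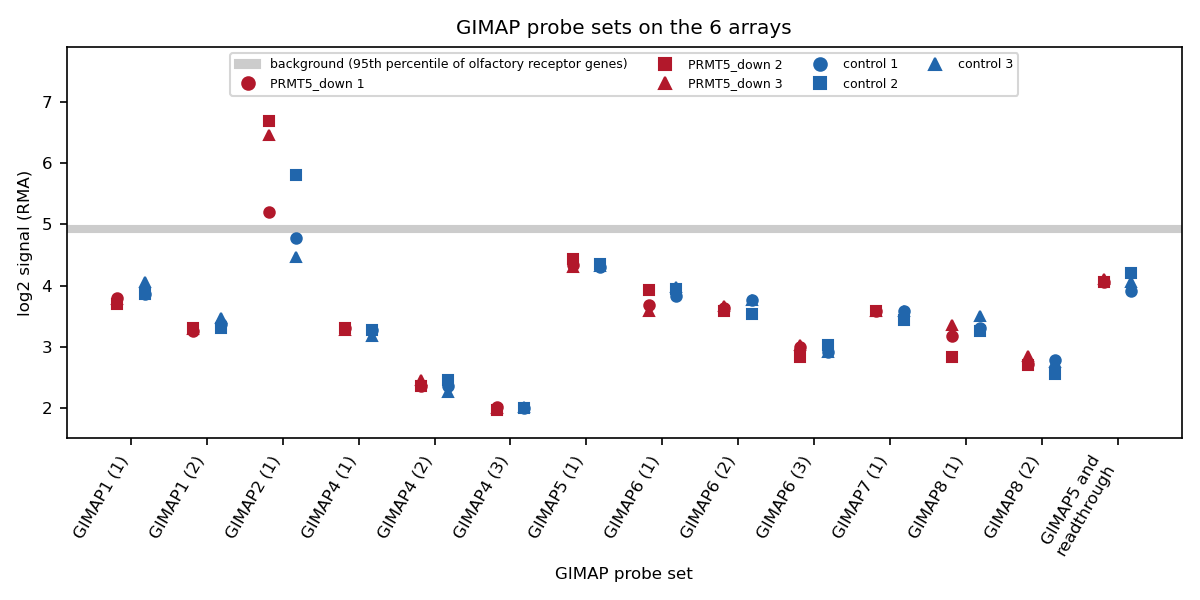
Log2 signal of each GIMAP probe set (x axis, numbered within a gene from the brightest) on the 6 arrays, PRMT5_down in red left of control in blue, with a grey band for the background of 4.88 to 4.98. GIMAP2 alone reaches above the band, on 4 arrays, and the other 13 probe sets lie between 1.97 and 4.43.

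The sequences before the gene starts were set side by side, because GIMAP2 was the one gene of the cluster with a signal above background. RefSeq (GRCh38.p14) gives a window of 250 bases before to 50 after each start, here on human chromosome 7. The windows of GIMAP1, GIMAP2 and GIMAP7 follow, 5′ to 3′ on the strand of the gene, which is the plus strand for all 3. Capitals mark a run of 14 bases that they share, read on the opposite strand in GIMAP2.
GIMAP1 promoter, GRCh38.p14 chr7:150716363-150716662, plus strand: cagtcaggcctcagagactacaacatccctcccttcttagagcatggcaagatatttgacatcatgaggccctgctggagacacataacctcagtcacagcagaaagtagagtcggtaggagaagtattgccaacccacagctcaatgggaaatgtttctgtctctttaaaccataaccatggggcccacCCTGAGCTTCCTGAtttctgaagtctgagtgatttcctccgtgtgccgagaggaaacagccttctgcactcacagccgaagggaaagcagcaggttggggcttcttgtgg
GIMAP2 promoter, GRCh38.p14 chr7:150685456-150685755, plus strand: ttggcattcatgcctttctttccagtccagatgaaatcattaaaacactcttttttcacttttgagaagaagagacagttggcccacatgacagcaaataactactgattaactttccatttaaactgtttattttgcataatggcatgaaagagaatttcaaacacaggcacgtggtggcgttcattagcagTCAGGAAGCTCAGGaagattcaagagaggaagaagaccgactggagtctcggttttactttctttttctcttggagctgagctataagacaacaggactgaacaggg
GIMAP7 promoter, GRCh38.p14 chr7:150514622-150514921, plus strand: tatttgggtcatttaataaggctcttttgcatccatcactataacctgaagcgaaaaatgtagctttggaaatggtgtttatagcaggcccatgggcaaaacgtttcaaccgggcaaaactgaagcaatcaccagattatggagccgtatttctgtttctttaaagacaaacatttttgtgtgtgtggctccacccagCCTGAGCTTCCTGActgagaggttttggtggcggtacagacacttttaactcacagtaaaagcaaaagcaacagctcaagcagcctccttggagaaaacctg
The shared run began 60 bases before the start in GIMAP1, 57 before in GIMAP2 and 52 before in GIMAP7, counting the base just before the start as -1. Between GIMAP2 and GIMAP7 the match extended to 17 bases. The run was picked from the longest stretches shared by pairs of the 7 member windows. That choice favours a run that few windows hold. Of 35116 promoter windows, 4 held the run of 14 bases on either strand, or 0.0114%: those 3 genes and the readthrough gene GIMAP1-GIMAP5, whose window is that of GIMAP1. With 1 mismatch allowed 0.0598% of windows held it, and with 4 allowed 30.5% did. The closest stretches in GIMAP4 and GIMAP6 had 4 mismatches, that of GIMAP8 had 5 and that of GIMAP5 had 6. The run was therefore in the windows of GIMAP2 and of 2 members under background alike, and the letters do not show whether a protein binds there.

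Motif letters were counted on both strands of the same windows. The ETS core GGAA, which also lies inside the shared run, matched 5 times in GIMAP2 and at least once in all 7 members, as in 95.5% of all windows. The E-box letters CANNTG matched 4 times in GIMAP2, at most 2 times in the other members and in 68.7% of all windows. An interferon response element, spelled as GAAA, any 2 bases and GAAA again, matched once in GIMAP2, from base 2 after the start on the opposite strand, once in GIMAP7 and in 3.57% of all windows. The GATA letters GATAA matched in GIMAP6 alone, against 22.7% of all windows, and the GC box GGGCGG in no member, against 45% of all windows. The RUNX letters TGNGGT matched in GIMAP1, GIMAP4 and GIMAP6 and in 43.2% of all windows, CCAAT in GIMAP5 and GIMAP6 and in 34.6%, and TATAAA in GIMAP7 and in 11.5%. G and C made up 40.3% of the GIMAP2 window, the lowest of the 7, whose median was 49.7% against 58.7% for all windows.

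**Figure D2:**
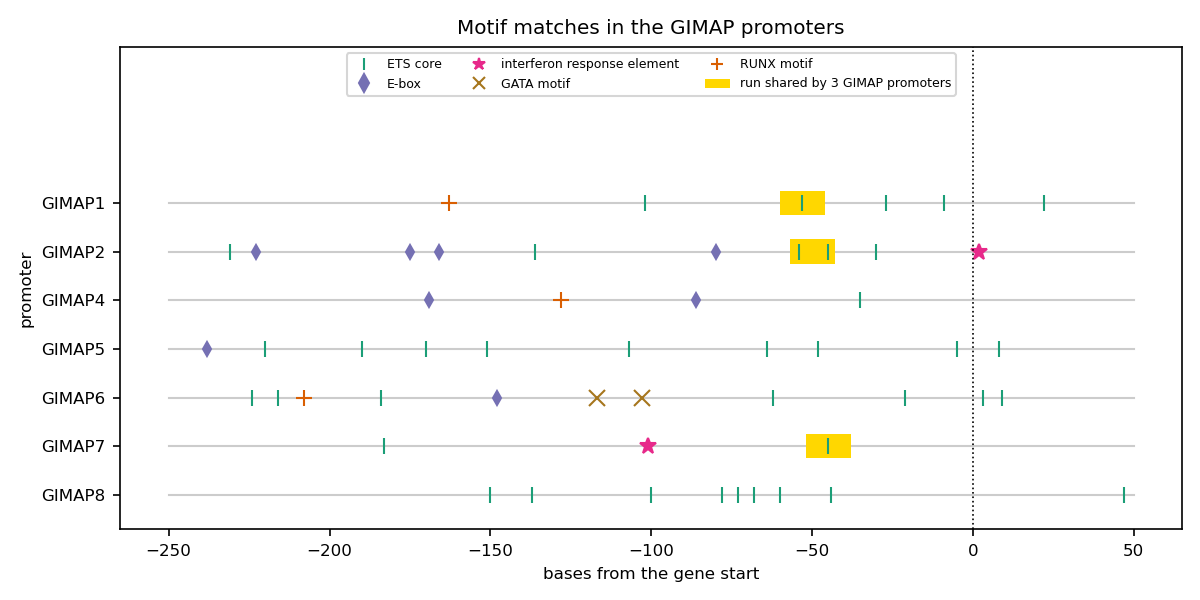
First base of each match of 5 of the motifs (symbols) and the 14-base shared run (yellow) by distance in bases from the gene start, 1 line for each GIMAP promoter. The shared run lies within 60 bases before the start in GIMAP1, GIMAP2 and GIMAP7, and the interferon response element appears in GIMAP2 and GIMAP7.

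GIMAP2 was higher in PRMT5_down within each replicate number. Its mean was 6.12 ± 0.80 in PRMT5_down and 5.02 ± 0.71 in controls (SD, n = 3 each). The log2 difference was 1.10 (SE 0.50), or 2.15-fold, with 2 of the 3 control arrays under background. Arrays of the same number deviated together over all probe sets, so differences were also taken within each number. They were 0.43, 0.88 and 2.0 for numbers 1, 2 and 3. In numbers 1 and 3 the control array was under background, so those 2 values have no exact size and the order of the 3 is not settled. Without the arrays of number 3 the log2 difference was 0.655. The fit with the replicate number as a block had the same difference with an SE of 0.25.

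PRMT5 itself was lower in PRMT5_down in all 3 numbers, with all 6 arrays above background. Its signal was 8.63, 9.65 and 9.37 in PRMT5_down replicates 1, 2 and 3, against 9.93, 10.35 and 10.30 in control replicates 1, 2 and 3. That left 40.6%, 61.6% and 52.5% of the control signal in numbers 1, 2 and 3. A relation between the 2 genes over 3 pairs was not tested.

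**Figure D3:**
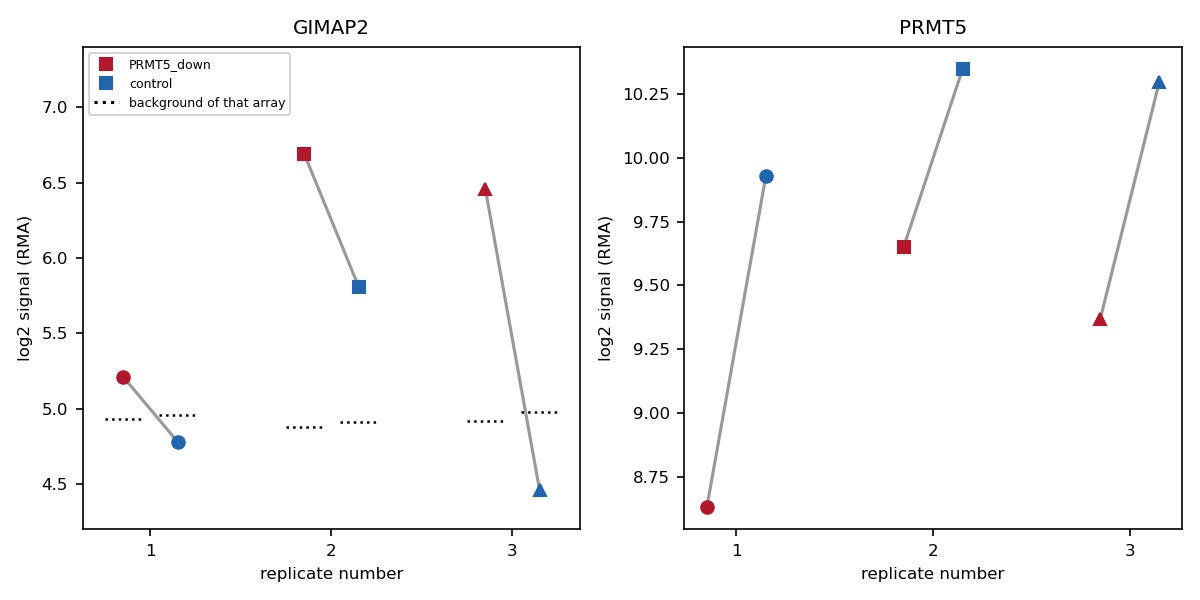
Log2 signal of GIMAP2 (left) and PRMT5 (right) by replicate number, PRMT5_down in red left of its control in blue, with grey lines joining arrays of the same number and dotted marks for the background of each array in the GIMAP2 panel. GIMAP2 is higher in PRMT5_down by 0.43, 0.88 and 2.0, and PRMT5 is lower in all 3 numbers.

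Against all genes, GIMAP2 ranked 4 of 18132 by its difference. A mean at least 2-fold higher in PRMT5_down was seen for 0.0386% of genes, GIMAP2 being the only member among them. GIMAP2 was selected on this contrast, so nothing is read from its rank. Over 49293 probe sets, limma called 0 at an adjusted p under 0.05 (0% called, with 466 or 0.945% at an unadjusted p under 0.05), and hence 0 of the 14 GIMAP probe sets. The replicate block left 0 called as well (0%, with 4221 or 8.56% at an unadjusted p under 0.05).

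GIMAP2 also differed between replicate numbers, a comparison that played no part in choosing the family but was added after its values were seen. The mean of both groups was 5.00 in number 1, 6.25 in number 2 and 5.46 in number 3. The replicate number, tested beside the group with the limma F test over all probe sets, passed for GIMAP2 (adjusted p = 0.0338), and in both groups the array of number 2 was the highest of 3. It passed for 33.5% of all probe sets and for 1 of the 14 GIMAP probe sets. The next smallest value was that of the brighter GIMAP8 probe set (limma F adjusted p = 0.0821), which missed. What a number stands for is not in the labels, and the numbers were taken to pair arrays from these same data. For GIMAP2 the comparison includes control replicates 1 and 3, under background by 0.18 and 0.52, so its size is not exact.

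The signal of GIMAP2 also spread widely for its level. It ranged over 2.23 log2 units on the 6 arrays. Of 2957 probe sets with a mean within 0.25 of its mean of 5.57, 99.5% had a narrower range, and the median range was 0.54. That range holds the difference between the groups for which GIMAP2 was chosen, so its width follows in part from the choice and is only described. A single probe set reports GIMAP2, so no other can be set beside it.

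The other 6 members were under background on all 6 arrays with every probe set. Their 12 own probe sets and the shared one lay between 1.97 and 4.43, at least 0.45 under the background of the array in question. In the same data 37.4% of genes, each by its brightest probe set, were above background on no array and 56.5% on all 6. A level under background does not show that a transcript is absent. Mean differences of these 13 probe sets ran from -0.23 to 0.06, while the central 95% of 20669 probe sets above background on no array ran from -0.22 to 0.20.

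GIMAP1, in mice needed for mature T and B cells, read 3.80, 3.69 and 3.78 in PRMT5_down and 3.86, 3.86 and 4.06 in controls. Its groups did not overlap, as for 3.92% of all genes, with a log2 difference of -0.17 (SE 0.09) under background. Its second probe set differed by -0.10 (SE 0.08), and there the groups overlapped.

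GIMAP5, the lysosomal member, read 4.34, 4.43 and 4.30 in PRMT5_down and 4.30, 4.35 and 4.32 in controls. The probe set it shares with the readthrough transcript read 4.05, 4.06 and 4.10 in PRMT5_down and 3.91, 4.21 and 4.05 in controls. Both sets of groups overlapped, with log2 differences of 0.03 (SE 0.08) and 0.01 (SE 0.10). GIMAP7, the partner that stimulates GTP hydrolysis by GIMAP2, read 3.58 on all 3 PRMT5_down arrays and 3.58, 3.43 and 3.58 in controls. The same value, to the second decimal, stood on 5 of the 6 arrays, over both groups.

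GIMAP6, which takes part in autophagy and binds the ATG8 protein GABARAPL2, read 3.68, 3.92 and 3.58 in PRMT5_down and 3.83, 3.94 and 3.97 in controls with its brightest probe set. That gave a log2 difference of -0.19 (SE 0.11), while its other probe sets gave -0.05 (SE 0.09) and 0.00 (SE 0.09). GIMAP8, the member with several GTPase domains in one chain, read 3.18, 2.83 and 3.35 in PRMT5_down and 3.30, 3.26 and 3.50 in controls. Its probe sets disagreed in sign, at -0.23 (SE 0.16) and 0.06 (SE 0.10). GIMAP4, a cytosolic member known from T cell death, differed by 0.06 (SE 0.08), 0.03 (SE 0.09) and -0.01 (SE 0.07) with its 3 probe sets.

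By its brightest probe set, 4 of the 7 members had a positive difference and 3 a negative one, where 43.3% of all genes had a positive one. The median difference was 0.03 over the 7 members and -0.02 over all genes. Within replicate numbers 1, 2 and 3 the median of the members was 0.00, 0.03 and -0.02. GIMAP2 and GIMAP4 were higher in all 3 numbers (11.7% of all genes) and GIMAP1, GIMAP6 and GIMAP8 lower (15.2% of all genes). Of these, all but GIMAP2 were under background. No further probe set of GIMAP1, GIMAP4, GIMAP6 or GIMAP8 went one way in all 3 numbers. After the 1.10 of GIMAP2, the next highest difference by the brightest probe set was the 0.06 of GIMAP4, under background on all 6 arrays.

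Genes next to the cluster had small differences, and none was called. In the RefSeq order on chromosome 7, GIMAP2 lies between GIMAP6 and GIMAP1. The 10 protein-coding genes on each side, with 1 uncharacterised gene inside the cluster, gave 18 measured neighbours, of which 15 were above background on all 6 arrays and 2 on none. Of these 8 had a positive and 10 a negative difference, with a median of -0.02 (limma called 0).

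ZNF862, a zinc finger gene, read 5.43, 5.49 and 5.43 in PRMT5_down and 5.14, 5.27 and 5.24 in controls. RARRES2, which encodes the chemoattractant chemerin, read 5.42, 5.48 and 5.56 in PRMT5_down and 5.63, 5.63 and 5.67 in controls. The groups did not overlap for either gene, as for 3.92% of all genes, with log2 differences of 0.23 (SE 0.08) and -0.16 (SE 0.08). Neighbours were named by the width of their difference, which favours groups that do not overlap. ACTR3C, an actin-related gene, differed by -0.33 (SE 0.28) and the kinase gene CDK5 by -0.13 (SE 0.29), both with overlapping groups. TMEM176B and TMEM176A, the nearest measured genes beyond GIMAP5, were under background on all 6 arrays.

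**Figure D4:**
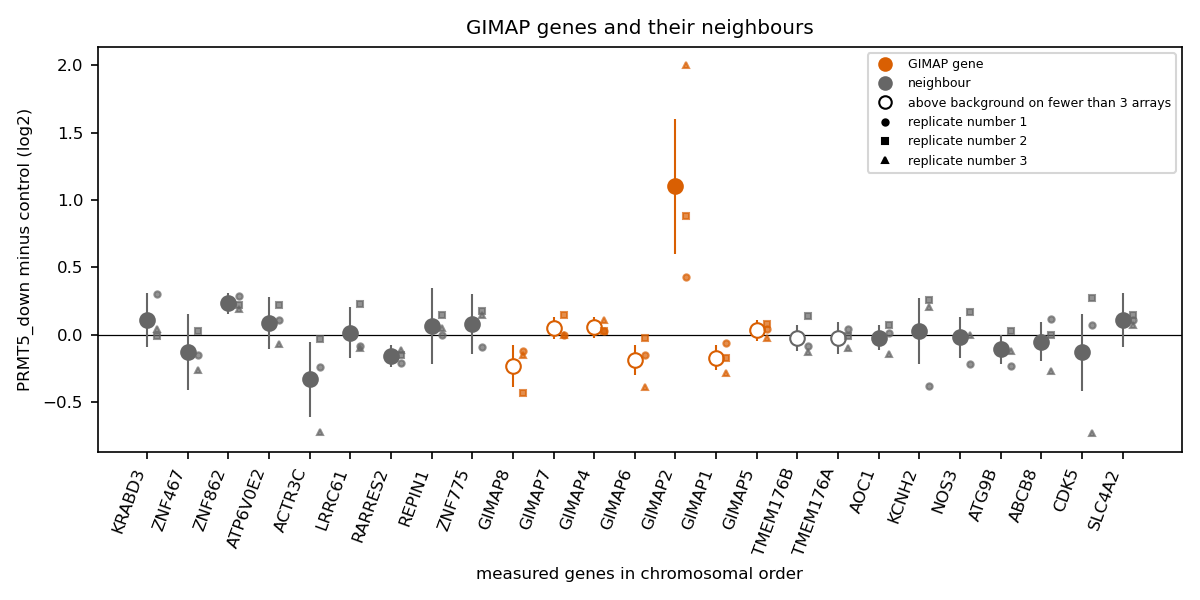
Mean log2 difference, PRMT5_down minus control, of the measured genes around the GIMAP cluster in chromosomal order (large points, bars are the limma SE, n = 3 arrays each), with small symbols for the 3 replicate numbers and open points for genes above background on fewer than 3 arrays. GIMAP2 stands at 1.10 between GIMAP6 at -0.19 and GIMAP1 at -0.17, which were both under background on all 6 arrays.

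Listed genes of the ATG8 and BCL2 families, some of them reported GIMAP partners, were mostly above background, and none was called. The ATG8 genes, whose products mark autophagosomes, had 5 of 6 members above background on all 6 arrays. With 5 positive differences and 1 negative, where 43.3% of all genes had a positive one, the median was 0.07, and limma called 0. GABARAPL2 read 10.54, 10.58 and 10.49 in PRMT5_down and 10.46, 10.58 and 10.19 in controls, with overlapping groups and a log2 difference of 0.13 (SE 0.12). GABARAPL1 and MAP1LC3B differed by 0.16 (SE 0.36) and 0.16 (SE 0.18).

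Members of the BCL2 family, some of them reported partners of GIMAP4 and GIMAP5 in lymphocytes, had 6 of 6 genes above background on all 6 arrays and 6 negative differences. The median was -0.08, against -0.02 over all genes, of which 43.3% had a positive difference, and limma called 0. BCL2, which blocks cell death, differed by -0.13 (SE 0.11), BAK1, which carries it out, by -0.12 (SE 0.19) and the BH3-only gene BCL2L11 by -0.09 (SE 0.30). Other GTPases, interferon-inducible or dynamin-like, were mostly under background: 11 of 12 guanylate-binding, MX, IRGM and atlastin genes were above it on no array, with 0 called and a median of -0.04. The exception was ATL3, an atlastin of the endoplasmic reticulum, at 0.16 (SE 0.27).

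Markers of T cells, NK cells, endothelium and monocytes did not separate the groups. Of 14 T cell genes 1 was above background on all 6 arrays and 11 on none, 6 had a positive and 7 a negative difference and limma called 0. CD3D, a chain of the T cell receptor complex, read 7.39, 6.64 and 8.42 in PRMT5_down and 7.54, 6.81 and 8.20 in controls, while CD3G, CD247, CD2 and LCK were under background on all 6 arrays. The summed linear signal of the T cell genes was 336 to 592 in PRMT5_down and 347 to 551 in controls. The NK cell genes summed to 221 to 364 in PRMT5_down and 241 to 417 in controls, with 3 of 7 above background on all 6 arrays. The endothelial genes summed to 282 to 409 in PRMT5_down and 268 to 375 in controls, with 2 of 8 above background on all 6, and the monocyte genes to 738 to 1092 in PRMT5_down and 677 to 1131 in controls, with 3 of 8. The groups overlapped in all 4 of these sums.

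The summed linear signals of the listed B cell and erythroid genes did not overlap between the groups. Like the sums above, they add probe sets that are not on one scale, so a bright one weighs heavily. Among B cell genes PAX5 read 8.18, 8.31 and 8.36 in PRMT5_down and 8.46, 8.36 and 8.38 in controls. Among erythroid genes TFRC read 12.21, 11.29 and 11.70 in PRMT5_down and 11.66, 11.15 and 10.79 in controls. SLC4A1, another erythroid gene, had a log2 difference of 1.00 (SE 0.36), at least 2-fold, and was higher in all 3 numbers. PAX5, TFRC and SLC4A1 had overlapping groups, while AHSP did not, as for 3.92% of all genes. B cell genes summed to 518 to 576 in PRMT5_down and 586 to 610 in controls, with 3 of 8 above background on all 6 arrays, 8 negative differences and 0 called by limma. Plasma cell genes, which should mark the labelled line, summed to 1219 to 2050 in PRMT5_down and 1430 to 1720 in controls, and these sums overlapped. The differences were negative for 10 of 10, with a median of -0.05 and 0 called by limma. SDC1 read 4.99, 5.16 and 5.18 in PRMT5_down and 5.35, 5.22 and 5.47 in controls. Its groups did not overlap, as for 3.92% of all genes, with a log2 difference of -0.24 (SE 0.10). It was named by the width of its difference, which favours groups that do not overlap. Only 3 of the 10 plasma cell genes were above background on all 6 arrays, with SDC1 and XBP1 (10.02 to 10.88) among them. JCHAIN was above it on 5 arrays, and 6 genes, with IRF4, CD38 and TNFRSF17 among them, on none. Of 12 erythroid genes listed 7 were measured by a probe set of their own. All 7 had a signal over background on all 6 arrays, and all 7 had a positive difference, with a median of 0.25 and 0 called by limma. They summed to 7055 to 8743 in PRMT5_down and 5614 to 6680 in controls, with the globin chaperone AHSP at 1.58 (SE 0.58), which, like GIMAP2, was known to be high from earlier results. The background to the counts of these lists is the 43.3% of all genes that had a positive difference. The median difference over all genes was -0.02. The part of these lists in the GIMAP2 difference was not tested.

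Among transcription factors of blood lineages, 10 of 13 were above background on all 6 arrays, with 7 positive differences, 5 negative and 0 called by limma. LMO2, a partner of GATA and TAL1 factors, read 9.26, 9.76 and 9.37 in PRMT5_down and 9.03, 9.25 and 8.82 in controls. Its groups did not overlap, as for 3.92% of all genes, with a log2 difference of 0.43 (SE 0.17). Genes of this list were named by the width of their difference, which favours groups that do not overlap. The lymphoid regulators IKZF1 and ETS1 differed by 0.20 (SE 0.16) and -0.18 (SE 0.37), both with overlapping groups.

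The genes whose signal ran most like that of GIMAP2 over the 6 arrays were sought among 1959 genes that were above background on at least 3 arrays and ranged over at least 1 log2 unit. The 8 highest Pearson correlations, over n = 6 arrays, were 0.87 for CIRSR, 0.86 for the actin-binding gene TWF1, 0.85 for the lipase gene ABHD2, 0.82 for the mitochondrial membrane gene SYNJ2BP, 0.82 for the histone gene H2BC5, 0.81 for the tRNA methyltransferase gene TRMT6, 0.81 for the eosinophil granule gene PRG2 and 0.80 for TTC14. The 4 lowest were -0.93 for B9D1, of the ciliary transition zone, -0.90 for the integrin gene ITGA5, -0.88 for the inhibin subunit gene INHBE and -0.84 for the syndecan gene SDC2. These are the extremes of many comparisons over few arrays that share replicate numbers, and they are given as descriptions.

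In all 8, as in GIMAP2, the array of number 2 was the highest of 3 in PRMT5_down and in controls, an order that choosing them by their correlation over these arrays favours. Of the 1959 genes compared 15.3% had that order. PRG2 alone had a difference as wide as that of GIMAP2, with 7.75, 9.61 and 8.46 in PRMT5_down and 5.68, 7.91 and 7.46 in controls. Its difference was 2.07, 1.70 and 1.00 in numbers 1, 2 and 3, all from signals above background. The other 7 had mean differences of 0.18 to 0.37. Positive differences in these genes are likewise favoured by the choice, since the 6 arrays hold the contrast on which GIMAP2 was selected.

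**Figure D5:**
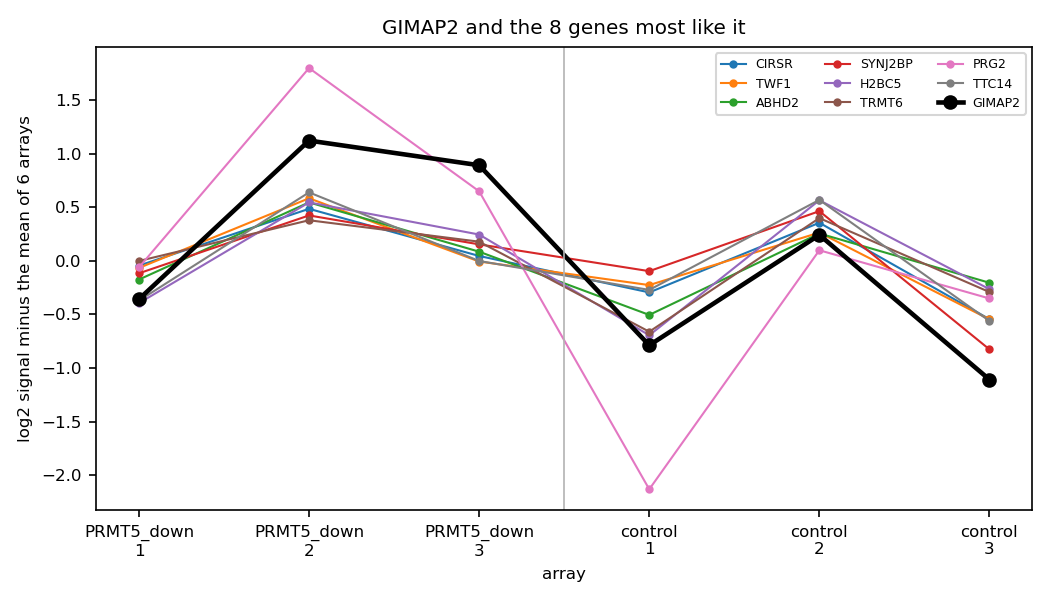
Log2 signal minus the mean of the 6 arrays, for GIMAP2 (black) and the 8 genes most like it by Pearson correlation, on the PRMT5_down arrays (left) and the control arrays (right), with lines only to link the points of a gene. All 9 genes peak at replicate 2 within both groups.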

How the data were processed

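The authors deposited a table of log2 signals, 1 per probe set and array, for 6 arrays. The submitters' processing notes name RMA, and its version and the chip definition were not given in the sources used here. Because RMA gives all arrays the same distribution, a shift common to most genes is lost. Array medians lay between 5.29 and 5.32.

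Of 49372 probe sets, 79 controls were left out. Symbols came from the platform annotation, and 44967 were brought up to date by gene identifier. The brightest probe set with 1 symbol stood for each of 18132 genes. The groups were compared over 49293 probe sets with lmFit and eBayes of limma 3.58.1 in R 4.3.3, adjusted after Benjamini-Hochberg, and the code was tested on simulated data. SE values come from that fit, except where the replicate block is named. That fit leaves out the replicate number, so these SE values also hold shifts shared by arrays of the same number. Same-numbered arrays of the 2 groups deviated together from their group means, with r = 0.806, 0.705 and 0.778, above the minimum of 0.1. The numbers were therefore taken to pair the arrays, from the data and not from the labels.

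The members, gene lists and motifs were chosen with earlier results of these data known. Named were all members, PRMT5, up to 3 genes of each list and 4 neighbours with the widest differences among those above background on at least 3 arrays, and the 8 genes most and 4 least like GIMAP2. Others were named after their values were seen. Alternatives tried were normalization, the probe set rule, variance models, array weights, a filter on dim probe sets, the replicate block and left-out arrays. Only 3 arrays a group limit the precision.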

Additional observations from a re-analysis of the deposited data

How the results depend on the processing

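GIMAP2 was higher in PRMT5_down under each setting for which its difference was computed, with a log2 difference of 1.11 after quantile normalization, 1.18 with array weights, 0.818 to 1.56 with 1 array left out, and 1.44, 1.22 and 0.655 without number 1, 2 or 3. The median of the 7 genes, 0.033 as planned, ran from -0.003 to 0.050 with 1 array left out, its sign turning without PRMT5_down replicate 2, and was 0.000 with the replicate block and number 2 left out. Of the 7 genes 3 to 4 were higher under those settings. Limma called 0 probe sets under all settings except the replicate block with trend and robust, which like the settings without a number was added after seeing the data, with 6 called, 2 of PRG2 and 1 each of AHSP, PRMT5, TMPRSS4 and FOSL2, and 0 of GIMAP genes. The planned fit had 466 probe sets with an unadjusted p under 0.05, and the fit with the replicate block had 4221. They were 80 with the lowest 50% left out and 149 with 1 probe set a gene, where fewer were tested. With 1 array left out they ran from 297 (without PRMT5_down replicate 1) to 821 (without control replicate 2), with 721 without PRMT5_down replicate 2. With the block they were 1179, 4874 and 1862 without number 1, 2 or 3 and 4288 with trend and robust. Where no count of tests or arrays accounts for a shift, the cause was not tested. The replicate block alone changed no call. The lack of signal over background limits what can be said of the other 6 members.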
